A study of Mus musculus with 8 samples.

Results

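The binding sites of EBF1 and of Brg1 in untreated mouse pro-B cells were compared, using the 2 peak lists made from cells that received the DMSO vehicle and no degrader. These hold 312 EBF1 sites and 234 Brg1 sites, which is 546 of the 5757 sites in the 4 lists of the series. A site was called joint where an EBF1 peak and a Brg1 peak shared at least 1 bp, and EBF1-only or Brg1-only otherwise. That gave 44 joint sites, 268 EBF1-only sites and 190 Brg1-only sites, and each joint site paired 1 EBF1 peak with 1 Brg1 peak.

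Sites were mapped by chromatin immunoprecipitation with sequencing (ChIP-seq) in pro-B cells transformed with A-MuLV, the Abelson murine leukaemia virus. In these cells an exogenous EBF1 that carries dTAG, a degron tag, stands in for the endogenous protein, so the DMSO controls hold the tagged form too. The EBF1 library is from the EBF1-dTAG_C line and the Brg1 library from the EBF1-dTAG_N line, 1 each. The treatment labels give DMSO for 6 h and the titles give 0 h. EBF1 chromatin was fixed for 10 min in 1% formaldehyde, and Brg1 chromatin in EGS, a longer crosslinker, followed by 15 min in 1% formaldehyde. Whether a line is 1 clone or a pool is not given in the sources used here.

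With 1 library per factor there is no replicate, and the factor, the line, the antibody, the fixation and the depth change together and cannot be told apart. A median EBF1 summit rested on 26 fragments (15 to 90) and a median Brg1 summit on 13 (8 to 368), and a site without a peak may hold signal below the caller's threshold. In the Brg1 list, 34 peaks stood on a local background of more than 5 times the lowest of that list, 18 of them on chromosome 9 and 5 on unplaced scaffolds. These high-background peaks included 0 joint sites, and 1 EBF1-only site, at Smpd3, met the same definition. The labelled cell type was set against the sites of defining genes. Of 10 pro-B genes, 9 had an EBF1 or a Brg1 site, the exception being Vpreb1, whereas 0 of 8 T-cell, 0 of 7 myeloid, 0 of 5 erythroid and 0 of 5 neuronal marker genes had either.

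EBF1 is a DNA-binding factor that, with E2A, Foxo1 and Pax5, sets up the B-lineage gene programme, including the surrogate light chain and the signalling chains of the pre-B cell receptor. It binds as a dimer to a palindrome whose core is CCCNNGGG. Brg1, encoded by Smarca4, is an ATPase of the BAF remodelling complex, which slides and ejects nucleosomes and has no comparable sequence specificity of its own, so it is brought to sites by other proteins and chromatin marks.

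Sequence could be read where a peak covered part of a RefSeq promoter, here the bases from 250 before to 50 after a gene start, on GRCm38.p6. EBF1 peaks at 24 sites covered part of 25 promoters, and Brg1 peaks at 5 sites covered part of 5. The stretches below show the EBF1 core, or the lack of an exact copy, at promoters of the 3 classes of site, and CCCNNGGG is in capitals. Each is written 5′ to 3′ along the gene and ends before the start. The first pair are joint sites, Igll1 (chr16:16864173-16864235, minus strand) and Niban3 (chr8:71597537-71597657, plus strand).

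Igll1: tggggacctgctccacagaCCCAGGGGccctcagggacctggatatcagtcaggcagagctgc
Niban3: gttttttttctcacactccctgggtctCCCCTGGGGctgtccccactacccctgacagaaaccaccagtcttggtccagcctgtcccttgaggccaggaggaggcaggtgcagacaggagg

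Igll1 encodes lambda5 of the surrogate light chain, and the core lay 34.5 bp from its EBF1 summit and 20.5 bp from its Brg1 summit. That EBF1 summit lay 262 bp before the start, outside the bases read, so a nearer copy could not be seen. In Niban3, a gene of B cells, 2 overlapping copies lay within 29.5 bp of the EBF1 summit and 13.5 bp of the Brg1 summit. The next 4 are EBF1-only sites that hold a longer palindrome, the core with T before it and A after it: Pold4 (chr19:4231643-4231741, plus), Ppm1a (chr12:72760972-72761092, plus), Mphosph8 (chr14:56668107-56668227, plus) and Hip1r (chr5:123973378-123973477, plus).

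Pold4: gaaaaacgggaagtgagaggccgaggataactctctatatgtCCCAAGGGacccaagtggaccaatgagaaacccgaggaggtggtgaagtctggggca
Ppm1a: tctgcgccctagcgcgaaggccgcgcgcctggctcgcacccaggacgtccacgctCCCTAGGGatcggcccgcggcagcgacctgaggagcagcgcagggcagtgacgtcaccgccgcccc
Mphosph8: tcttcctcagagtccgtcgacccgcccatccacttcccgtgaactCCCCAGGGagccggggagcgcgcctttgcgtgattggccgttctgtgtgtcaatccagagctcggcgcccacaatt
Hip1r: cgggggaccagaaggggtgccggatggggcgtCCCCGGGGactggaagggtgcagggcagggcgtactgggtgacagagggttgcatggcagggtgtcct

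Pold4 is a subunit of DNA polymerase delta, Ppm1a a protein phosphatase, Mphosph8 a member of the HUSH complex, which silences genes, and Hip1r a clathrin adaptor. Their palindromes lay 7.5, 1.5, 11.5 and 3.5 bp from the EBF1 summit. The last stretch is from a Brg1-only site at Cd79a (chr7:24897247-24897362, plus), which encodes the Ig-alpha chain of the B-cell receptor. The part of its promoter under the Brg1 peak has no exact CCCNNGGG. It does hold ctcaaggg, a near match that the search did not count, and whether EBF1 can bind there was not tested.

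Cd79a: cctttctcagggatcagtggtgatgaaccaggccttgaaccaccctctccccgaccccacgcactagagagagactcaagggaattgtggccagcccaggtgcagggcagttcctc

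Under EBF1 peaks the core was found in 13 of 25 promoters (52%), where 5.80% of all 32851 promoters hold it over the same stretches on average. Its nearest copy lay at a median of 12.5 bp from the summit, and in 9 of the 13 within 25 bp. The longer palindrome was found in 6 of the 25 (24%; Hdlbp, Ppm1a, Mphosph8, Pold4, Acp6 and Hip1r), against 0.355% of all promoters over the same stretches, and all 6 lay within 25 bp of the summit. All 6 are EBF1-only sites, but so are all of the 25 except Igll1, Pik3ap1 and Niban3, whose sites are joint. Under Brg1 peaks the core was found in 2 of 5 promoters, those of the joint sites Igll1 and Niban3, and in 0 of the 3 Brg1-only promoters (Cd79a, Arhgap25 and Fam110a). The search read both strands and counted exact matches only, and copies of CCCNNGGG include those inside the longer form.

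**Figure D1:**
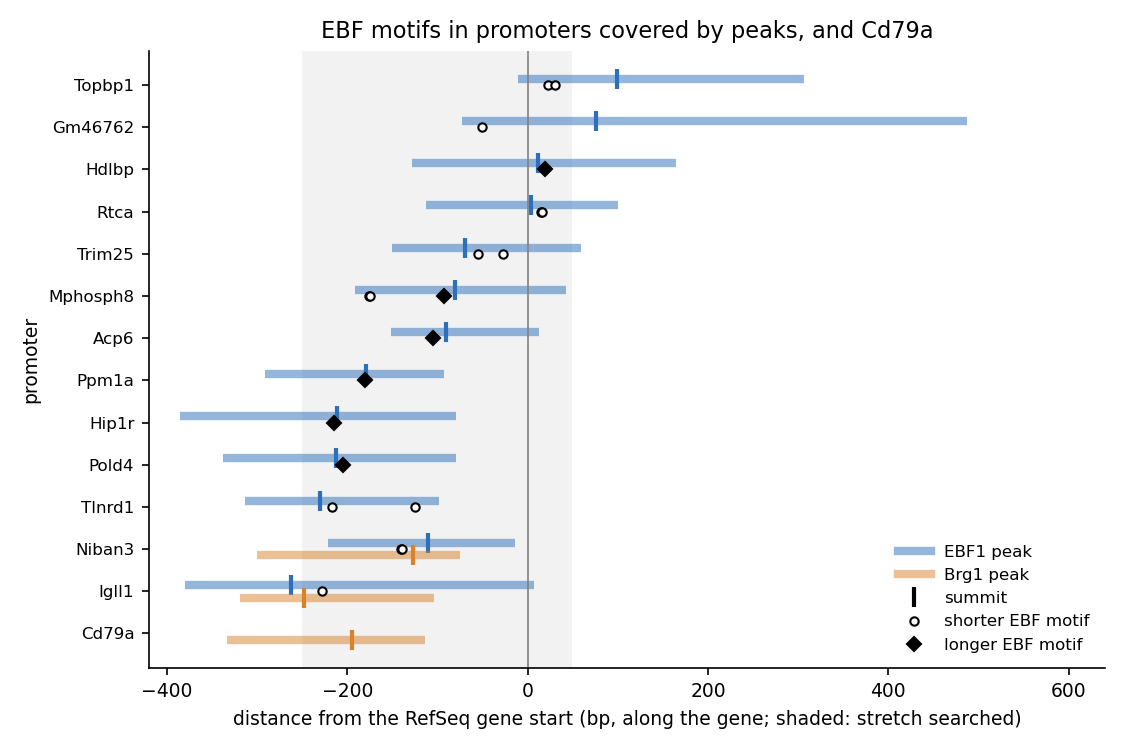
Promoters in which an EBF1 peak covers the EBF core, with Cd79a added, by distance from the RefSeq gene start in bp along the gene. Bars are peaks, ticks are summits, open circles are the shorter and filled diamonds the longer EBF motif, searched only in the shaded stretch under a peak. The 6 longer motifs lie within 25 bp of an EBF1 summit, and of the promoters drawn only Niban3 and Igll1 carry both an EBF1 and a Brg1 peak.

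The same stretches were searched for motifs of other factors. The ETS motif CCGGAAGT was found in 0 of 25 EBF1 and 0 of 5 Brg1 promoters, against 3.89% of all promoters over their full length. The ETS variant GAGGAAGT was found in 0 and in 1 (Arhgap25), against 3.20%. The E-box CAGCTG was found in 4 of 25 and 1 of 5, against 16.3%, and the AP-1 motif TGANTCA in 1 of 25 and 0 of 5, against 7.81%. No match says only that these letters are not in the stretch covered. All these shares are over full promoters, whereas the peaks covered only parts, so they are not like for like. For CCCNNGGG the share of all promoters was 13.7% over the full length but 5.80% over the stretches under EBF1 peaks. A share over the same stretches was not computed for the other motifs. Over whole promoters of the assigned genes, whether or not a peak lay there, the core stood in 11 of 34 with a joint site (32.4%, 17.4 to 50.5%), 64 of 177 with EBF1 only (36.2%, 29.1 to 43.7%) and 24 of 100 with Brg1 only (24%, 16.0 to 33.6%), against 17.6% of 17492 protein-coding genes.

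The first comparison asked how far the sites of EBF1 and Brg1 coincided. Joint sites made up 44 of 312 EBF1 sites (14.1%, exact 95% interval 10.4 to 18.5%) and 44 of 234 Brg1 sites (18.8%, 14.0 to 24.4%). Without the high-background peaks the share of Brg1 sites was 22% (16.5 to 28.4%) of 200. Intervals cover counting error only. With only peaks of a −log10 q of at least 10 in both lists, the joint sites fell to 6, which is 4.76% of 126 EBF1 sites and 13% of 46 Brg1 sites, or 30% of the 20 Brg1 sites left when the high-background peaks were dropped too.

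Joint sites were more frequent among the higher peaks of either list, in numbers given here as a description. Ordered by the authors' fold enrichment, which is the ratio of fragments at the summit to local background with 1 added to each, the 4 equal parts of the EBF1 list from low to high held 9, 6, 12 and 17 joint sites of 78 each. The 4 parts of the Brg1 list held 3 of 59, 6 of 58, 16 of 58 and 19 of 59. Without the high-background peaks, whose fold enrichments were all low, the Brg1 parts held 4, 8, 17 and 15 of 50. The top of the EBF1 list was shared most, with 3 of its 5 highest sites joint, but the next 5 added 0. Of the 10 highest Brg1 sites 3 were joint.

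Within each list the joint peaks were somewhat taller. Among EBF1 peaks the median fold enrichment was 7.34 at joint sites (exact 95% interval of the median 6.90 to 8.66) and 6.59 (6.28 to 6.90) at EBF1-only sites, with medians of 30 and 25 fragments at the summit. The ranges overlapped almost wholly, at 4.45 to 22.1 and 3.19 to 26.2, and the highest peak of all, near Mib1, was EBF1-only. Among Brg1 peaks the median was 7.28 (6.96 to 7.84) at joint sites and 6.54 (6.38 to 6.72) at Brg1-only sites without high background, with 13 and 12 fragments. Here the highest peak, near Ppp2r5a, was joint.

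**Figure D2:**
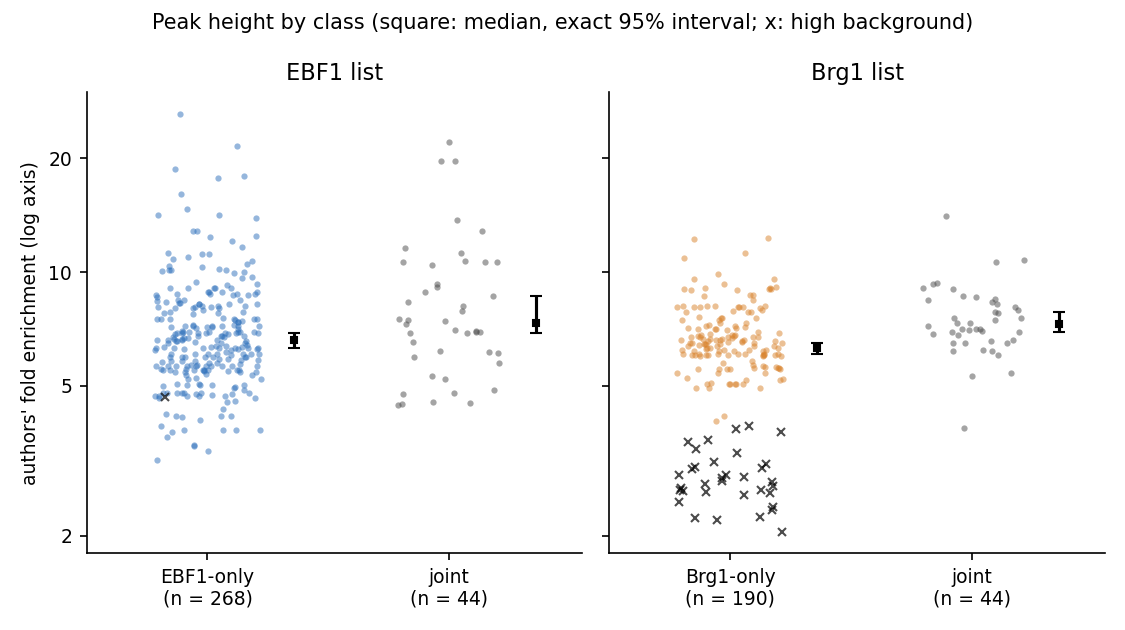
The authors' fold enrichment of every peak on a log axis, for the EBF1 list (left) and the Brg1 list (right), split into non-joint and joint sites. Points are peaks, crosses are high-background peaks, and squares with bars are medians with exact 95% intervals, for all Brg1-only peaks 6.30. Values of the 2 lists stand against different backgrounds and are not comparable with each other.

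At the joint sites themselves the highest EBF1 peaks lay near genes of varied function. The highest, with a fold enrichment of 22.1 for EBF1 (75 fragments) and 10.8 for Brg1 (17 fragments), was between genes and assigned to Cux1, a homeodomain transcription factor (chromosome 5, 136589471 to 136590107). Myl10, a myosin light chain, followed with 19.7 for EBF1 and 9.08 for Brg1, and Med13l, a Mediator subunit, with 19.7 and 7.56. Col26a1, a collagen, held one inside the gene with 13.7 and 6.49. Cux1, Myl10 and Col26a1 are neighbours, and around each of these 3 summits 6 EBF1 and 3 Brg1 sites lay within 250 kb. Chromosome 5 held 6 of the 44 joint sites, the most of any chromosome, but also the most EBF1 sites, of which 15% of 40 were joint.

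Igll1 ranked next, with 12.8 for EBF1 (45 fragments) and 7.35 for Brg1 (16 fragments), 262 and 248 bp upstream of the start. It was followed by Msi2, an RNA-binding protein with 2 joint sites inside the gene (EBF1 11.6 and Brg1 8.41 at the higher), Wdhd1, a replication factor (11.2 and 8.22), and Snx5, a sorting nexin (10.7 and 8.63). Car2, a carbonic anhydrase, had 10.6 and 8.33. Dab2ip, which activates the GTPase of Ras, had 10.6 and 6.98, and Iqsec1, which loads Arf with GTP, had 10.6 and 7.84. The next joint site, near Ppp2r5a, a regulatory subunit of the phosphatase PP2A, had 10.5 for EBF1 and the highest Brg1 value of the list, 14.1 (27 fragments). Parp1, a poly(ADP-ribose) polymerase (9.31 and 6.92), Mrvi1 (9.12 and 8.49) and Kmt2e, a chromatin regulator (8.86 and 9.01), closed the 15 highest. Only Igll1 of these 15 belongs to a B-lineage list, and Dab2ip and Iqsec1 to that of GTPase and cytoskeleton regulators.

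Igll1 apart, the joint sites at B-lineage genes had EBF1 peaks of middling or low height, whereas by their Brg1 peaks they ranked from 28 (Pik3ap1) to 136 (Bank1) of 234. At Vpreb2, which encodes VpreB of the surrogate light chain, the site lay 9.76 kb from the gene, with 6.95 for EBF1 (23 fragments) and 7.01 for Brg1 (11 fragments). At Id3, an inhibitor of E proteins, it lay 15.9 kb upstream, with 5.96 (18 fragments) and 6.85 (10 fragments). At Foxo1, the forkhead factor that acts with EBF1, it lay 93.8 kb beyond the gene, with 4.51 (25 fragments) and 7.56 (13 fragments). Foxo1 ranked 290 of 312 among EBF1 peaks but 56 of 234 among Brg1 peaks.

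In pre-B cell receptor signalling, Bank1 and Pik3ap1 had joint sites. Both encode adaptors in B-cell receptor signalling. The Bank1 site was inside the gene, with 6.98 for EBF1 (27 fragments) and 6.23 for Brg1 (10 fragments), and Bank1 also had an EBF1-only site 1707 bp from that Brg1 summit and a Brg1-only site 21.5 kb outside the gene. The Pik3ap1 site lay 342 bp upstream of the start by its EBF1 summit, with 6.53 (24 fragments) and 8.57 (16 fragments).

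The second comparison asked how closely the summits of the 2 factors coincided at joint sites. The Brg1 summit lay a median of 38 bp (exact 95% interval of the median 30 to 49) from the EBF1 summit, with quartiles of 20.5 and 58.5 bp and a range of 1 to 177 bp. It was within 10 bp at 7 of 44 sites (15.9%, 6.64 to 30.1%), within 50 bp at 30 (68.2%, 52.4 to 81.4%) and within 100 bp at 38 (86.4%, 72.6 to 94.8%). The requirement of an overlap caps this distance, since joint EBF1 peaks were a median of 253.5 bp wide and joint Brg1 peaks 219 bp. Even so, the smallest overlap was 124 bp and the median overlap 184 bp, which was 76.4% of the EBF1 peak and 87.8% of the Brg1 peak. At 40 sites each summit lay inside the other factor's peak, 13 Brg1 peaks lay wholly within the EBF1 peak and 6 the other way round.

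The closest summits were at Dab2ip (1 bp), Ell3, a transcription elongation factor (2 bp), Id3 (3 bp), Capn13, a calpain protease (4 bp), and Tafa2, a secreted protein (4 bp). Among the 5 widest were those at Med13l (166 bp), Pacs2, a sorting protein (152 bp), Wdfy3, an autophagy adaptor (127 bp), and the lower Msi2 site (119 bp). At all 5 the Brg1 summit lay at the lower coordinate. Over the 44 sites it was lower at 26 and higher at 18, with a median signed distance of −15.5 bp. The distance did not follow height in a clear way, as the 22 joint sites with the higher EBF1 fold had a median of 40.5 bp and the other 22 of 30.5 bp.

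**Figure D3:**
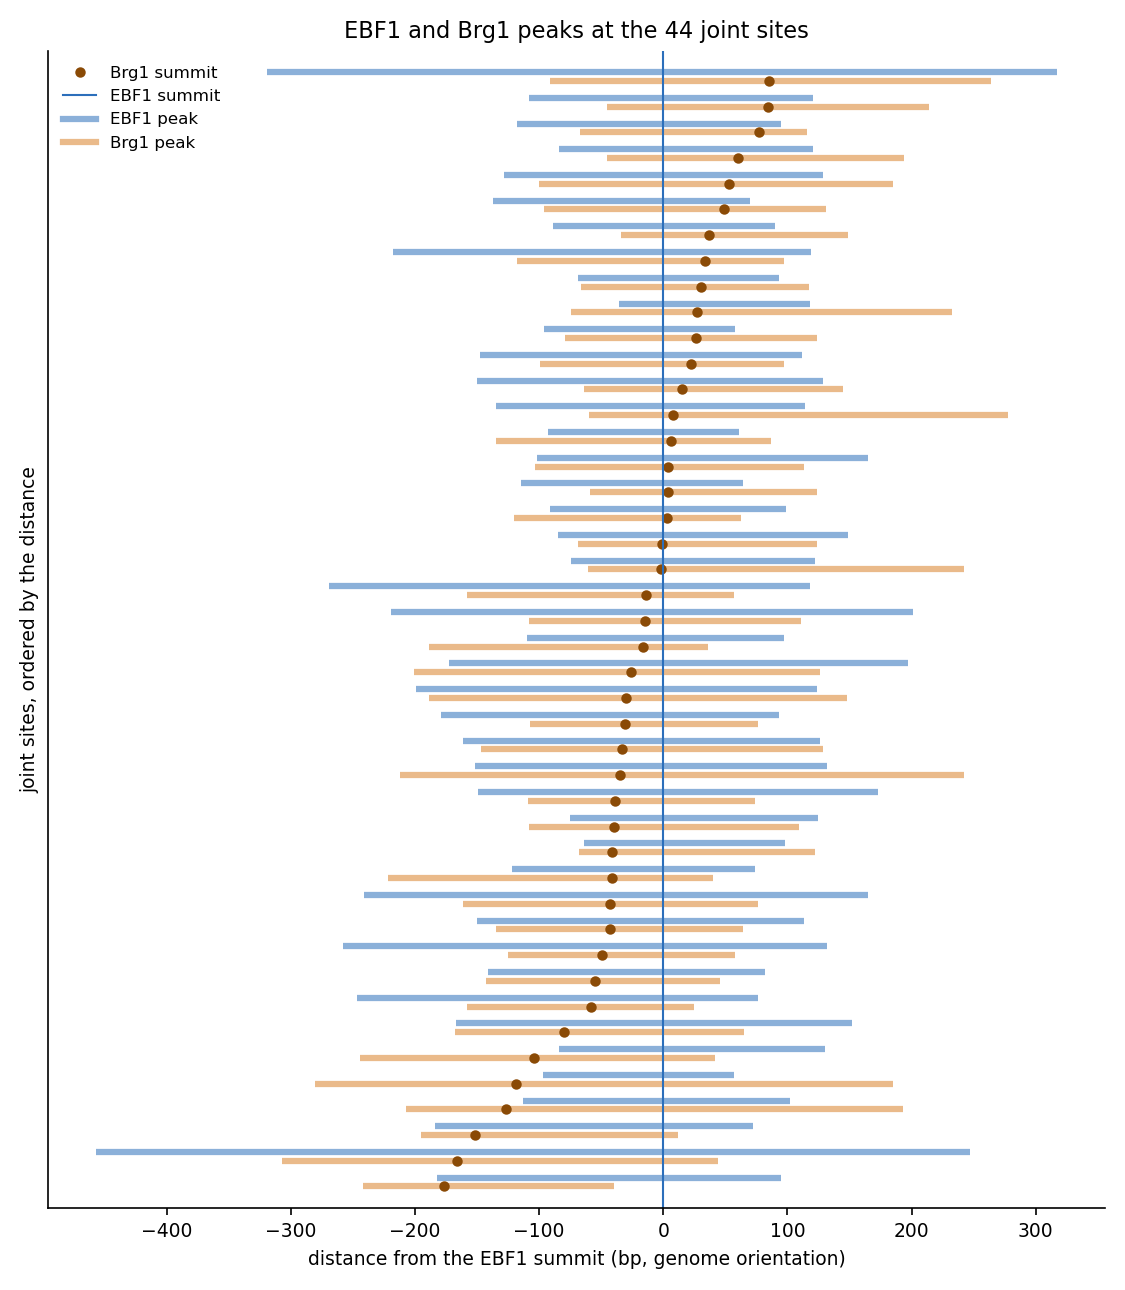
Each row is 1 of the 44 joint sites, ordered by the distance of the Brg1 summit (dot) from the EBF1 summit (line at 0), in bp along the genome. Blue bars are EBF1 peaks and orange bars Brg1 peaks. Most dots lie within 50 bp of the line, and the 5 farthest lie to its left.

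The third comparison asked where the 3 classes of site lay against protein-coding genes. EBF1-only sites were at gene ends more often than Brg1-only sites. A summit was counted at a gene end within 1 kb of either bound of a gene, inside when farther within a gene, and between genes otherwise. Gene ends held 43 of 268 EBF1-only summits (16.0%, 11.9 to 21.0%) and 6 of 185 Brg1-only summits (3.24%, 1.20 to 6.93%) on placed chromosomes, so the odds ratio was 5.70 (two-sided Fisher's exact test, adjusted p = 8.39e-05 over 9 position tests). Peaks of 1 library are not replicates, so these p-values describe these lists and not the factors at large. Among the 10 highest EBF1-only sites, that at Irgc1, an immunity-related GTPase (6 bp from a bound), was at a gene end, as were, of those in the lists, Cd79b (60 bp), Vpreb3 (182 bp) and Actl6b (521 bp).

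Brg1-only sites lay between genes more often, at 112 of 185 (60.5%, 53.1 to 67.6%) against 115 of 268 (42.9%, 36.9 to 49.1%), for an EBF1-only odds ratio of 0.49 (adjusted p = 0.00123 by the same exact test). Without the high-background peaks the Brg1-only share was 85 of 156 (54.5%), the odds ratio 0.63 and the adjusted p 0.119 by Fisher's exact test, so the direction was kept and the call was lost. The gene-end difference was still called without them, with 6 of 156 (3.85%). Summits over 100 kb from any gene numbered 37 of 185 among Brg1-only sites (20%, 14.5 to 26.5%), 13 of 156 without high background (8.33%, 4.51 to 13.8%) and 11 of 268 among EBF1-only sites (4.10%, 2.07 to 7.23%). Inside genes the 2 classes gave 41.0% and 36.2% (Fisher's exact test, adjusted p = 0.542). Without the high-background peaks the odds ratio there was 0.981 (Fisher's exact test, adjusted p = 1). With only peaks of a −log10 q of at least 10, however, the odds ratio inside genes was 5.67 (Fisher's exact test, adjusted p = 0.00282). That filter keeps 46 Brg1 peaks, of which 26 are high-background ones. Without these it was 2.48 (Fisher's exact test, adjusted p = 0.555), an alternative chosen after the data had been seen, and the gene-end difference, at 18 of 119 against 0 of 14, was then not called either (Fisher's exact test, adjusted p = 0.555).

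Joint sites stood between the other classes at gene ends, with 4 of 44 (9.09%, 2.53 to 21.7%), and were not shown to differ from either. Against EBF1-only sites the odds ratio at gene ends was 0.523 (Fisher's exact test, adjusted p = 0.542), and against Brg1-only sites it was 2.98 (Fisher's exact test, adjusted p = 0.308). Of joint sites 16 (36.4%) were inside and 24 (54.5%, 38.8 to 69.6%) between genes. Between genes the odds ratio was 1.60 against EBF1-only sites (Fisher's exact test, adjusted p = 0.428) and 0.782 against Brg1-only sites (Fisher's exact test, adjusted p = 0.639). With 44 joint sites these intervals are wide. Both summits of a joint site had the same position at all 44.

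RefSeq starts, chosen as a measure after the data had been seen, gave a like picture. A start lay within 1 kb of 30 of 265 EBF1-only summits (11.3%), 4 of 182 Brg1-only summits (2.2%) and 4 of 44 joint summits, those at Igll1, Pik3ap1, Ell3 and Niban3. The Brg1-only ones were at Cd79a, Arhgap25, Fam110a and Tnrc6a, named after their values were seen. Among the 35 joint sites whose assigned gene has a RefSeq start, 13 lay upstream and 22 downstream of it, at a median distance of 25.6 kb.

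**Figure D4:**
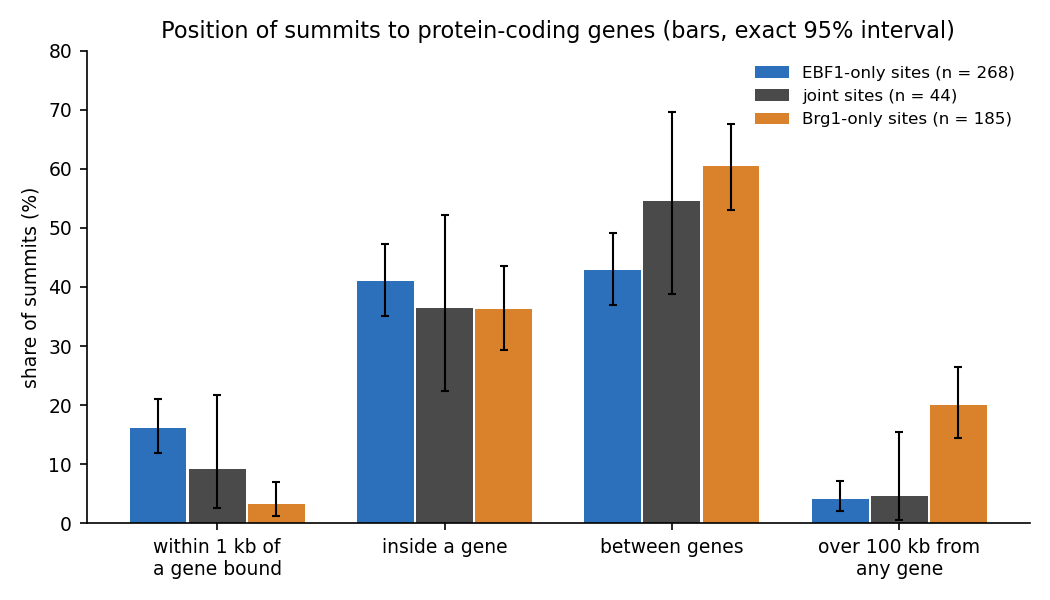
Share of summits in percent by position to protein-coding genes, for EBF1-only, joint and Brg1-only sites on placed chromosomes, with exact 95% intervals. The first 3 positions add to the whole, and the last is a part of those between genes. At gene ends the shares are 16.0%, 9.09% and 3.24%.

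Of the 10 highest EBF1 peaks 3 were joint, all of them among the 5 highest. EBF1-only sites, which were 268 of the 312 in the list, held the others. The highest of all, with a fold enrichment of 26.2 (90 fragments), was assigned over 99.9 kb to Mib1, an E3 ligase for Notch ligands. Slc25a26, a mitochondrial carrier, held the next inside the gene (21.5, 68 fragments), before Sh3gl3, an endophilin, at 64.4 kb (18.7, 64 fragments). Tbc1d16, a regulator of Rab GTPases, followed at 9.15 kb (17.9, 82 fragments) and Actb, which is both cytoskeletal actin and a BAF subunit, at 16.4 kb (17.8, 56 fragments). An interval in the immunoglobulin kappa locus had 16.2 (55 fragments). Sh2b3, an adaptor that restrains cytokine receptors, had 14.7 (67 fragments) inside the gene. Adap1, which acts on Arf GTPases, had 14.1, and Irgc1 13.9. None of the 10 highest EBF1-only sites has a Brg1 summit within 10 kb. As only 9 of all 268 EBF1-only sites have one (3.36%), this is not particular to the tallest. The nearest is 44.6 kb away, from the site of Tbc1d16.

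The tallest Brg1-only sites lay mostly between genes, as did 112 of all 185 on placed chromosomes (60.5%). The highest, with a fold enrichment of 12.3 (21 fragments), lay 26.2 kb upstream of the start of Ezh2, the methyltransferase of Polycomb complex PRC2 (chromosome 6, 47621155 to 47621418). Kcns2, a potassium channel subunit, followed at 61.4 kb (12.2, 21 fragments), and Tlr4, the receptor for lipopolysaccharide, held the next inside the gene (11.2, 17 fragments). Sfi1, a centrosomal protein, had 10.9 (22 fragments) at 26.3 kb, and Grap2, a haematopoietic adaptor, 9.86 (16 fragments) inside the gene. An interval in the kappa locus had 9.61. Jarid2, which recruits PRC2, had 9.57 (18 fragments) at 10.5 kb upstream of its start. Ly6m had 9.28, Atp1b3, a subunit of the sodium pump, 9.11, and Lyn, a kinase of the Src family, 9.08 (20 fragments). The same 10 led with and without the high-background peaks.

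Sites that did not overlap were seldom close to the other factor. An EBF1-only summit had a Brg1 summit within 1 kb in 4 of 268 cases (1.49%), within 10 kb in 9, within 100 kb in 27 (10.1%) and within 1000 kb in 80 (29.9%). A Brg1-only summit had an EBF1 summit within 1 kb in 2 of 190 cases (1.05%), within 10 kb in 4, within 100 kb in 20 (10.5%) and within 1000 kb in 57 (30%). The nearest miss for EBF1-only sites was 637 bp, inside Iqsec1, where the Brg1 summit belonged to a joint site. Col26a1 (941 bp), Wdfy3 (1681 bp), Bank1 (1707 bp) and Cux1 (4418 bp) likewise had an EBF1-only site beside a joint one, named after their values were seen. So 5 of the 9 EBF1-only sites within 10 kb of Brg1 flanked a joint site.

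The fourth comparison asked which genes the sites fell to. A site went to the protein-coding gene that held its summit, or else to that whose bound lay nearest, up to 100 kb away. Of 21900 protein-coding genes, 278 were assigned an EBF1 site (1.27%), 178 a Brg1 site (0.813%) and 42 a joint site (0.192%). Both factors were assigned to 46 genes, which is 16.5% of the EBF1 genes (12.4 to 21.4%) and 25.8% of the Brg1 genes (19.6 to 32.9%). For 40 of the 46 this came from a joint site. Both summits of a joint site went to the same gene at 43 of 44, counting the kappa intervals where neither had a gene.

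The remaining 6 genes had an EBF1 and a Brg1 site that did not overlap. Pax5, the B-lineage commitment factor, had both inside the gene but 34968 bp apart. The EBF1 site lay 4.50 kb from the start (fold enrichment 8.26, 35 fragments) and the Brg1 site 39.5 kb from it (6.44, 16 fragments). Plcg2, the phospholipase of the B-cell receptor, had both upstream and 12897 bp apart, the EBF1 site 3.24 kb from the start (4.35, 19 fragments) and the Brg1 site 16.1 kb (6.04, 9 fragments). Erg, an ETS factor, had both inside the gene and 1642 bp apart (EBF1 7.83, Brg1 8.13). Fgd2, which loads Cdc42 with GTP, had them 2650 bp apart (10.8 and 6.19), Fetub, a fetuin, 743 bp (6.34 and 5.75) and Ppp1cb, a catalytic subunit of phosphatase PP1, 712 bp (8.69 and 7.06). At 4 of these 6 genes the sites were thus under 3 kb apart without an overlap.

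Genes of the B lineage were assigned sites of both factors. Counts are read beside the 1.27%, 0.813% and 0.192% of all protein-coding genes, with no test, because the lists were chosen with results of these data known. Over all genes, 232 of 278 with EBF1 had no Brg1 site, and 132 of 178 with Brg1 no EBF1 site. Of 25 early B-lineage genes, 8 had an EBF1 site (32%) and 7 a Brg1 site (28%). Both were at 4, namely Foxo1, Igll1 and Vpreb2 through joint sites and Pax5 through separate ones. EBF1 without Brg1 was at Cd72, an inhibitory coreceptor, Cd79b, which encodes Ig-beta, Ebf1 itself, and Vpreb3, a chaperone-like relative of VpreB. Brg1 without EBF1 was at 3 members, among them Blnk, the adaptor of Syk, and Cd79a, the partner of Ig-beta. In these lists the Ig-alpha and Ig-beta genes were assigned peaks of different factors. Cd79b had an EBF1 summit 60 bp from the gene (8.08, 30 fragments). Cd79a had a Brg1 summit 195 bp upstream (6.55, 12 fragments). Whether the other factor was present below the caller's threshold at either gene was not tested.

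Of 28 B-lineage transcription factors, 6 had an EBF1 site (21.4%) and 4 a Brg1 site (14.3%), and those 4 (Erg, Foxo1, Id3 and Pax5) were all among the 6. The other two were Ebf1, with a site inside the gene (7.18, 22 fragments), and Mef2d, with one 5.61 kb outside (5.51, 18 fragments). No factor of this list had Brg1 without EBF1, against 132 of the 178 Brg1 genes over all, but only 4 factors had Brg1.

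Pre-B cell receptor signalling was the list with the most members assigned Brg1. Of its 28 members, 9 had a Brg1 site (32.1%) and 6 an EBF1 site (21.4%), with both at Bank1, Pik3ap1 and Plcg2. Brg1 without EBF1 was at 6 of the 9, near the 132 of 178 over all genes with a Brg1 site. Among the 6 were Blnk, Cd79a, Lyn, Ptpn6 and Syk. Lyn and Syk, the kinases that act first below the receptor, had 3 and 2 Brg1 sites. The Lyn sites had fold enrichments of 6.82 and 9.08, at 30.5 and 28.9 kb outside the gene, and 7.49 inside it. Those of Syk, 9.97 and 9.60 kb away and next to each other, had 5.04 and 6.38. Ptpn6, the phosphatase SHP-1 that opposes these kinases, had a site inside the gene (8.09, 12 fragments). Blnk had one 1.62 kb upstream of the start (6.91, 13 fragments). EBF1 without Brg1 was at Cd79b, at Inpp5d, the phosphatase SHIP-1, with 2 sites inside the gene (4.69 and 5.07), and at Pik3cd, the delta catalytic subunit of phosphoinositide 3-kinase (8.08, 30 fragments).

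Among 30 genes of cytokine signalling, proliferation and survival, 2 had EBF1 (6.67%), 3 had Brg1 (10%) and 0 had both. EBF1 was at Sh2b3 and at Bcl2l1, which encodes the survival factor Bcl-xL (6.84, 23 fragments). Brg1 was at Flt3, a receptor of early progenitors (7.12, 13 fragments), Pim1, a survival kinase (5.99, 11 fragments), and Socs3, a feedback inhibitor of cytokine receptors (5.42, 9 fragments). Among 30 GTPase and cytoskeleton regulators, 5 had EBF1 and 3 had Brg1. Dab2ip and Iqsec1 had both through joint sites, Adap1, Arap1 (12.4, 49 fragments) and Tbc1d16 had EBF1 alone, and Arhgap25 had Brg1 alone (6.86, 11 fragments). Of 26 BAF subunit genes, 2 had EBF1, Actb and Actl6b (5.65, 17 fragments), and 0 had Brg1.

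Genes of other lineages were counted the same way. Of 21 T-cell, 20 myeloid and 20 neuronal genes, 0 had an EBF1 site, and 1 of 16 erythroid and megakaryocyte genes did, Zfpm1, a partner of GATA factors (4.05, 27 fragments). Over these lists that is near the 1.27% of all protein-coding genes. Brg1 was assigned to 3 of 20 myeloid genes (15%), beside 0.813% of all protein-coding genes. The share was 14.3% of B-lineage transcription factors, 28% of early B-lineage genes and 32.1% of pre-B cell receptor genes. The 3 myeloid genes were Tlr4, Csf2ra, a receptor chain for GM-CSF (5.68, 14 fragments), and Ly6c2. The Ly6c2 peak was a high-background one (2.56, on a background 137 times the lowest of the list). Brg1 was also assigned to 1 of 21 T-cell genes (4.76%), Il2ra, a chain of the IL-2 receptor (6.72, 11 fragments), and to 0 erythroid genes. Apart from Ly6c2 these fold enrichments lie within those of Brg1 sites at B-lineage genes or, for Tlr4, above them.

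**Figure D5:**
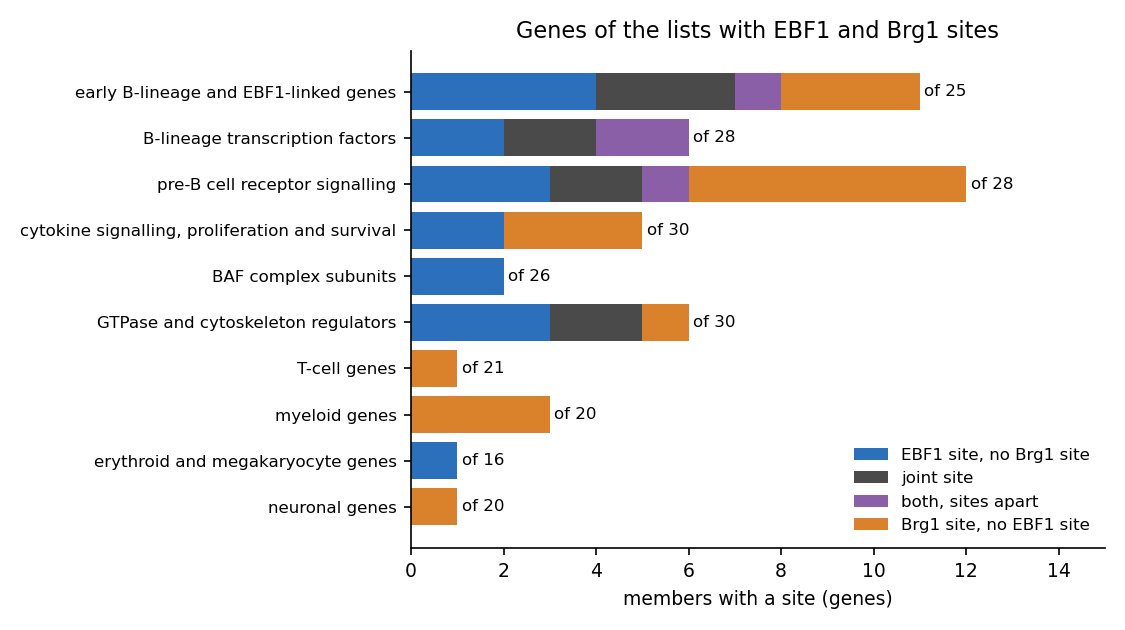
Number of genes in each list with an EBF1 site and no Brg1 site, a joint site, both at separate places, or a Brg1 site and no EBF1 site, with the size of the list at the end of the bar. Of the 4 transcription factors with Brg1, 0 have no EBF1 site, and of the 9 such pre-B cell receptor genes 6 have none. Over all genes with Brg1, 132 of 178 have none.

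The antigen receptor loci held few sites, and joint ones in the kappa locus only. The kappa locus had 4 EBF1 and 4 Brg1 sites, of which 2 were joint. The whole of its chromosome, chromosome 6, had 13 EBF1 and 18 Brg1 sites. The joint ones lay 106 bp from the V segment pseudogene Igkv15-101 by the EBF1 summit (EBF1 5.74, 22 fragments; Brg1 7.95, 13 fragments) and 3.01 kb from Igkv8-34 (7.41 and 8.06). The tall EBF1-only site lay 18.4 kb from Igkv13-87 and the tall Brg1-only site 13.2 kb from Igkv4-53, at different places of the locus. The heavy-chain locus had 0 EBF1 and 2 Brg1 sites, 1 of them 993 bp from the joining segment Ighj4 (5.54, 10 fragments) and the other 5.83 kb from Ighv14-4 (7.90, 15 fragments). The lambda locus had 1 Brg1 site, 15.7 kb from Iglc4, and the T-cell receptor loci Tra/Trd and Trb had 0 of either.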

How the data were processed

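The 2 peak lists of DMSO-treated cells were analysed, and the 2 lists after dTAG-13 were counted only. The submitters' processing notes name MACS2 2.2.7.1, beside Bowtie2 2.3.5.1, deepTools 3.3.2 and SAMtools 1.10, and the build GRCm38. Filters on reads and the settings and controls of peak calling are not given in the sources used. The deposited fold enrichment is a linear ratio, the deposited p and q values are −log10 values, and the deposited score was not used. The last deposited column is the summit's distance from the peak start. Peaks were called by the authors per library.

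Fragments at summits and local backgrounds were recovered by solving fold enrichment and the Poisson p-value together, which gave whole fragments for 100% of peaks of both lists within 0.0002 of the −log10 p, with the EBF1 library scaled by 0.863. For 1 EBF1 peak a second whole number fitted as well. The lowest background was 1.77 fragments per base for EBF1 on that scale and 0.607 for Brg1.

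Summits were placed on the bounds of 21900 protein-coding genes of RefSeq's GRCm38.p6, which matches the build of the peaks. Position tests were Fisher's exact tests, two-sided, adjusted by Benjamini-Hochberg over 9. Shares have Clopper-Pearson intervals and medians order-statistic intervals. The scripts (Python 3.11.15, SciPy 1.17.1) were tested on simulated data. The sites, classes and gene lists (233 symbols in 10 lists, 11 of them in more than 1) and the definition of high background were chosen with earlier results of these data known. Named sites were the 15 highest joint ones by EBF1 fold enrichment, those assigned to list members, the 5 smallest and the 5 largest summit distances, the 10 highest EBF1-only and Brg1-only ones, and genes whose sites lay apart. Planned motif searches were made in RefSeq promoters only, since no genome sequence was used here. A few sites that this rule names are not reported here.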

Additional observations from a re-analysis of the deposited data

How the results depend on the processing

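Results were recomputed with a reciprocal overlap of 50%, with summits within 250 bp, with −log10 q of at least 5 or at least 10, without the high-background peaks, without chromosome 5, with gene-end windows of 500 bp and 2 kb, by peak centre, and with gene assignment within 20 kb or by the nearest bound alone. RefSeq starts in place of gene bounds, and the −log10 q of at least 10 without the high-background peaks, were added after the data had been seen. Of 118 values, 109 kept their direction, their side of the threshold or their main interval. This count includes the settings of summits within 250 bp and of peak centre for position, which returned the main values unchanged. It also includes uncalled tests whose direction turned. Inside genes, the odds ratio of EBF1-only against Brg1-only sites went from 1.23 to 0.981 without the high-background peaks. The −log10 q of at least 10 moved the joint share to 4.76% of EBF1 sites and 13% of Brg1 sites and the genes with both factors from 46 to 6, and called the position inside genes of EBF1-only against Brg1-only sites, with an odds ratio of 5.67. It leaves 46 Brg1 peaks, where Brg1-only sites at gene ends numbered 0 of 38, so 2 odds ratios could not be computed. Without the high-background peaks as well, the joint share was 4.8% of EBF1 sites and 30% of 20 Brg1 sites, 6 genes had both factors, and the same 2 odds ratios could not be computed. Without the high-background peaks the odds ratio between genes of EBF1-only against Brg1-only sites was 0.63, and with both filters 0.22, and was no longer called in either. Over all alternatives the adjusted p of the last 2 tests ran from 0.00282 to 1 inside genes and from 4.43e-06 to 0.2 between genes, by Fisher's exact test. At gene ends that comparison was called under every alternative but both filters together (adjusted p = 0.555 by Fisher's exact test), with odds ratios from 3.41 upwards where they could be computed and adjusted p from 1.66e-05 to 0.0227 in the others, by Fisher's exact test. Median summit distances lay between 31.5 and 38 bp. No paired analysis was possible because each factor has 1 library. The depth, with a median of 13 Brg1 fragments at a summit, limits which weaker joint sites could be seen.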
